A study of Mus musculus with 214 samples.

Results

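The genes described here are 10 transcripts of mouse liver that the Wnt/β-catenin pathway is known to switch on in the hepatocytes around the central vein: Glul, Oat, Slc1a2, Rhbg, Cyp1a2, Gulo, Lgr5, Axin2, Rnf43 and Tbx3. They were chosen by name as known pericentral Wnt targets, with earlier results of these data known, and all 10 were present among the 18647 genes measured in WT livers and the 19540 genes measured in Mgmt-/- livers. The mice were of a C57BL/6 background, and both genotypes carried the RaDR recombination reporter (RaDR+/+) and the gpt delta transgene (GPT+/+), which the controls shared; the WT mice had no further change and the second genotype lacked Mgmt, the enzyme that removes methyl groups from the O6 position of guanine. Pups were injected intraperitoneally with N-nitrosodimethylamine (NDMA), a methylating carcinogen that CYP2E1 activates, at 3.5 mg/kg on postnatal day 8 and 7 mg/kg on postnatal day 15, or with saline on the same days, and livers were taken on day 1, day 2 or day 5 post-exposure, at week 10 or at month 10. From the earliest to the latest time, 26, 8, 8, 8 and 13 WT mice given NDMA were set against 21, 8, 7, 8 and 10 given saline, and 12, 8, 8, 8 and 13 Mgmt-/- mice given NDMA against 12, 7, 6, 8 and 12 given saline. Each mouse gave 1 liver piece and 1 library. Whole litters were allotted to NDMA or saline, and no litter is named in the labels, so litter and treatment cannot be told apart.

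Endothelial cells of the central vein secrete Wnt2, Wnt9b and the enhancer Rspo3, and the nearest hepatocytes answer by stabilising β-catenin, which enters the nucleus and binds TCF and LEF factors at target genes. The result is a narrow pericentral band of cells that make glutamine, take up glutamate and detoxify foreign compounds, while urea synthesis and gluconeogenesis are strongest on the portal side. Some targets feed back on the pathway itself: Lgr5 binds R-spondins, Rnf43 removes Frizzled receptors from the cell surface and Axin2 is a scaffold of the complex that destroys β-catenin. The same pericentral cells hold most of the CYP2E1 that turns NDMA into its reactive form.

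The stretch of DNA just before an annotated transcript start was available for 6 of the 10 genes in the RefSeq promoter set (build GRCm38.p6), and it was read for the core letters that TCF and LEF factors bind, CTTTGA and CTTTGT, on both strands. Either string was present in 27.6% of 32851 windows of 250 bases before annotated starts, and 2 or more matches were present in 5.15%. Slc1a2 and Cyp1a2 each held 2 matches, and the other 4 members held none. The windows with matches are printed to show them, beside that of Oat, which has none; capitals mark the matched letters (TCAAAG is CTTTGA on the opposite strand), each sequence runs 5′ to 3′ along the strand of its gene, and matches describe letters only.
Slc1a2: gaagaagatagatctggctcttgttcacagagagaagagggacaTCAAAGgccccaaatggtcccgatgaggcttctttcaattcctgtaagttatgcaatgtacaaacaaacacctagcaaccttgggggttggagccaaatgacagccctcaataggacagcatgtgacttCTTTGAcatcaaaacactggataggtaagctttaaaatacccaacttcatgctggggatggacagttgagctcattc
Cyp1a2: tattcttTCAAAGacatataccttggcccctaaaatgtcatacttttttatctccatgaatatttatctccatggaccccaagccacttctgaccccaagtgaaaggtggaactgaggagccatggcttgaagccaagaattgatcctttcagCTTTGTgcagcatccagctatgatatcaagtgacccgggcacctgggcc
Oat: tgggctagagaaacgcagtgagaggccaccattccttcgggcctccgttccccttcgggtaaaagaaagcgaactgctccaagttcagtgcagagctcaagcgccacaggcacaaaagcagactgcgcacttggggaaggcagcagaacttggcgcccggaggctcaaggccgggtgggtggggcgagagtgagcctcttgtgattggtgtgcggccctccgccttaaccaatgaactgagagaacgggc
The Slc1a2 stretch is chr2:102706188-102706437 on the plus strand and lies inside the annotated gene, before an internal start, not before the first base of the gene. Its matches begin 206 and 77 bases before that internal start; the nearer match lies in a 29-base exon of another Slc1a2 transcript at chr2:102706356-102706384. The Cyp1a2 stretch is chr9:57683704-57683905 on the minus strand, 202 bases because the 48 bases next to the RefSeq start, annotated as exon, were left out. Its matches begin 243 and 97 bases before that RefSeq start, with the 48 left-out bases counted. The Oat stretch is chr7:132576399-132576648 on the minus strand. Tbx3, Lgr5, Rhbg and Gulo were not in the set.

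Libraries were 3′ digital gene expression libraries, in which a read marks the 3′ end of a transcript, so levels are not divided by gene length. They held 150038 to 4791649 reads in WT (median 1700411) and 713584 to 7740710 in Mgmt-/- (median 2306710), and 4 WT libraries from mice given NDMA held fewer than 300000. Values are normalized counts, that is, gene counts divided by 1 size factor per library, with each genotype scaled by itself; levels of the genotypes are therefore not compared directly. Hepatocyte transcripts were abundant in every library used, with a mean over their markers of at least 15874 normalized counts, and Mgmt was at 13.0 to 130 normalized counts in WT against 0 to 9.67 in Mgmt-/-. The liver piece was bulk tissue, so fewer pericentral cells and less RNA per cell cannot be told apart in any result given here.

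Some libraries stood apart. Of the Mgmt-/- saline libraries of day 5, 2 held the kidney transcript Kap at 6147 and 7562 normalized counts, against 13.9 or less in the other Mgmt-/- libraries, and they had Slc1a2 at 1.76 and 1.09 and Gulo at 1.76 and 2.18; they were left out. Of the WT NDMA libraries of day 1, 2 went against their labelled sex by Xist and Y-linked genes (the libraries labelled D209072, male, and D209077, female), and they also held Glul at 302 and 297 and Cyp1a2 at 1125 and 1145, near the saline levels. The library labelled D209074, WT saline of day 1 and of the same batch, held Glul at 60.9 and Cyp1a2 at 72.7 and lay at or below the NDMA median in 6 of the 10 genes, where the median over the WT saline libraries of day 1 was 0 genes. It was picked out from its member values. In WT saline livers, library D215004 of day 2 held Glul at 88.9 and Slc1a2 at 3.86, and library D215012 of day 5 held Glul at 151 and Slc1a2 at 21.8, each the lowest of its group. The cause of these departures was not tested, and no sample was moved to another group.

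The first question was how NDMA changed the 10 genes within each genotype and time. A gene was called when limma gave a Benjamini-Hochberg adjusted p under 0.05 over all genes with a mean of at least 5 normalized counts, together with an absolute log2 fold change over 0.58, on log2(value + 1) with sex and library batch as terms; low genes therefore have understated fold changes. On day 1 in WT livers, 8 of the 8 members tested were lower after NDMA, where 4.19% of all 9028 genes tested were called lower. On day 1 in Mgmt-/- livers 9 of 9 were lower, against 8.64% of all genes. On day 2 the counts were 6 of 7 in WT (2.91% of all genes) and 8 of 8 in Mgmt-/- (7.5%), and on day 5 they were 5 of 7 (1.39%) and 6 of 8 (6.71%). The median log2 fold change of the members tested was -1.54, -2.19 and -1.84 on the 3 days in WT and -1.99, -2.30 and -1.5 in Mgmt-/-, whereas that of all genes tested lay between -0.08 and 0.03.

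Adults differed by genotype in the counts. At week 10 in WT livers 0 of 7 members were called lower and only 2 of all 8048 genes were called, both higher (0.0249%), with 0 called by edgeR and 5 by DESeq2. At month 10 in WT 0 of 10 members and 0 of all 9254 genes were called, with 0 by edgeR and 1 by DESeq2. At an unadjusted p under 0.05 there were 1 member at week 10 (Rhbg) and 5 at month 10 (8.18% of all genes, against 4.35% at week 10). At month 10 in WT the log2 fold change was below 0 in 9 of 10 members (median -0.35, against -0.06 for all genes). Rhbg was above 0, at 1.30. In Mgmt-/- livers at week 10, Glul, Oat and Slc1a2 were lower and Rhbg was higher (3 lower and 1 higher of 8; 3.88% of all genes lower, 7.27% higher). At month 10 in Mgmt-/- livers Oat and Lgr5 were lower (2 lower and 0 higher of 10; 2.99% of all genes lower, 4.75% higher).

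Members that fell can also pass the filter on low values through their saline level alone. In WT this was so for 2 of the 8 members tested on day 1 (Tbx3 and Rnf43) and 2 on day 2 (Tbx3 and Rhbg). In Mgmt-/- it was so for 1 on day 1 (Lgr5), 2 on day 2 (Slc1a2 and Tbx3) and 1 on day 5 (Tbx3). Without that filter all 10 members entered the fit in each comparison. Then 10, 7 and 5 of 10 were called lower on days 1, 2 and 5 in WT (2.53%, 1.25% and 0.549% of all genes in the same fits) and 9, 9 and 7 in Mgmt-/- (5.43%, 4.51% and 4.07%), and the log2 fold change was below 0 in all 10 members in each of these 6 comparisons. Their medians over all 10 were -1.46, -2.17 and -1.54 in WT and -1.98, -1.87 and -1.5 in Mgmt-/-.

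**Figure D1:**
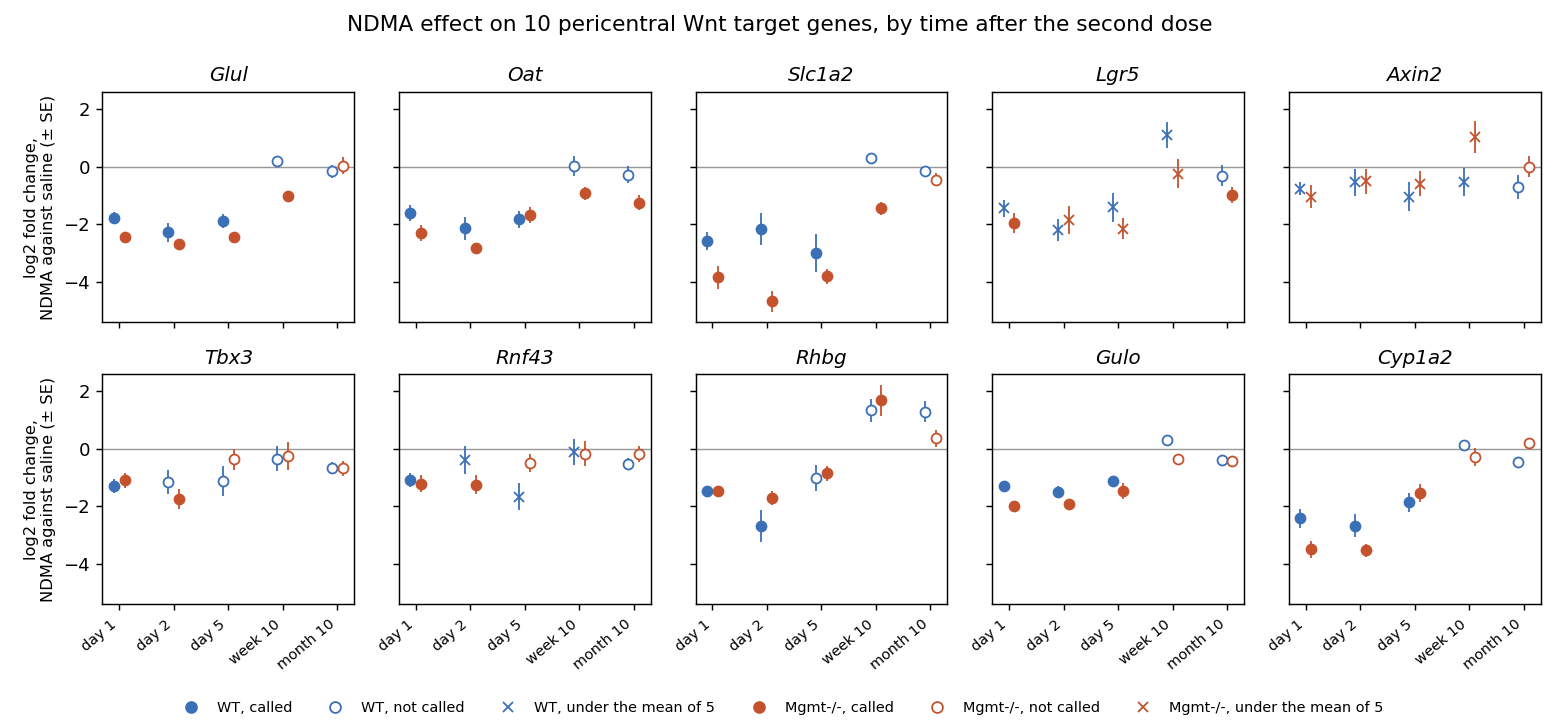
Log2 fold change of NDMA against saline (y axis, ± SE) for the 10 genes at the 5 collection times (x axis), WT in blue and Mgmt-/- in orange, with filled points called, open points tested and not called, and crosses for genes under a mean of 5. Slc1a2 reaches -4.69 in Mgmt-/- livers on day 2, all 10 genes lie below 0 on days 1, 2 and 5, and the adult points of Rhbg lie above 0, up to 1.69.

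Glul makes glutamine from glutamate and ammonia and marks the innermost ring of pericentral hepatocytes. In WT livers on day 1 it stood at 38.3, 75.7 and 302 normalized counts (lowest, median and highest) after NDMA and at 60.9, 310 and 536 after saline. The Mgmt-/- values on day 1 were 55.5, 92.8 and 237 after NDMA and 368, 557 and 794 after saline. The Mgmt-/- groups did not overlap (0.457% of all genes were wholly below in this way). In WT 6 of 26 NDMA libraries lay below every saline library, the lowest of which was the library labelled D209074. The log2 fold change was -1.79 ± 0.198 in WT (SE, adjusted p = 3.48e-09, limma) and -2.44 ± 0.146 in Mgmt-/- (adjusted p = 7.15e-16, limma). Levels stayed low through day 5: in Mgmt-/- livers they were 107, 121 and 153 against 642, 744 and 1243 on day 2, and 123, 170 and 248 against 788, 943 and 1156 on day 5, with log2 fold changes of -2.70 and -2.46. All NDMA libraries again lay below all saline libraries, as did 3.02% of all genes on day 2 and 3.23% on day 5. WT livers had -2.29 and -1.91 on these days.

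In adult WT livers Glul did not pass the test, with 0.18 at week 10 and -0.17 at month 10 on the log2 scale. In Mgmt-/- livers at week 10 it was at 148, 344 and 442 normalized counts after NDMA and at 470, 645 and 826 after saline, without overlap (0.609% of all genes were wholly below in this way), a log2 fold change of -1.03 ± 0.193 (adjusted p = 0.000596, limma). At month 10 the ranges covered each other, with 157, 1185 and 2073 against 471, 997 and 1952 and a log2 fold change of 0.02. By sex, the 6 males given NDMA held Glul at 157, 710 and 2073 (saline males, n = 5, median 1045), and the 7 females at 1137, 1228 and 1628 (saline females, n = 7, median 953), so the medians differed from saline in opposite directions; whether the sexes differ in the effect was not tested.

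Slc1a2 encodes the glutamate transporter GLT-1, which brings glutamate into the cells that hold Glul. Its log2 fold change was the lowest of all genes tested on day 1 in both genotypes, at -2.59 ± 0.318 in WT and -3.84 ± 0.399 in Mgmt-/- (adjusted p = 3.40e-08 and 4.06e-08, limma). WT livers of day 1 held 1.49, 3.41 and 51.6 normalized counts after NDMA and 10.1, 39.7 and 84.0 after saline. Mgmt-/- livers had NDMA values of 0, 3.75 and 22.9 and saline values of 45.8, 59.0 and 81.8 (0.457% of all genes had such a gap there), so that all 12 NDMA libraries lay below all 12 saline libraries. On day 2 the Mgmt-/- groups stood at 0, 3.12 and 5.19 against 47.7, 76.9 and 112, a log2 fold change of -4.69 ± 0.362, and on day 5 at 2.77, 6.74 and 22.2 against 87.0, 112 and 132, a log2 fold change of -3.81. WT values were -2.19 on day 2 and -3.01 on day 5; the WT calls were lost when any 1 of 3 libraries was left out on day 2 (highest adjusted p = 0.0516, limma) or any 1 of 2 on day 5 (0.0619).

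At week 10 Slc1a2 was still lower in Mgmt-/- livers (log2 fold change -1.45 ± 0.214, adjusted p = 4.34e-05, limma). It was at 45.1, 61.2 and 95.2 against 105, 169 and 303 normalized counts, with no overlap (0.609% of all genes). By month 10 the groups overlapped (60.9, 236 and 447 against 180, 291 and 527) and the log2 fold change of -0.46 did not pass the test. WT adults gave 0.28 and -0.15.

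Oat, ornithine aminotransferase, turns ornithine into a precursor of glutamate in the same pericentral cells. It fell by 1.62, 2.15 and 1.84 on the log2 scale on days 1, 2 and 5 in WT and by 2.32, 2.83 and 1.68 in Mgmt-/-. On day 2 in Mgmt-/- livers it was at 78.0, 102 and 191 normalized counts after NDMA and at 670, 792 and 951 after saline, wholly apart (3.02% of all genes). Oat was the only member called lower at all 5 times in Mgmt-/- livers. At week 10 its groups overlapped, with 433, 723 and 977 against 697, 1339 and 2779 (log2 fold change -0.93 ± 0.237, adjusted p = 0.00970, limma), and scaling every library to the same total moved this call past the threshold (-0.72, adjusted p = 0.0555). At month 10 the values were 153, 1174 and 1876 against 1484, 2210 and 6576, and 10 of 13 NDMA livers lay below every saline liver (log2 fold change -1.25 ± 0.269, adjusted p = 0.00268, limma). In adult WT livers the log2 fold changes were 0.01 and -0.28.

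Rhbg is an ammonium transporter of pericentral hepatocytes. It was lower on day 1 by the same amount in both genotypes (-1.47 in WT and in Mgmt-/- on the log2 scale), with 2.98, 9.87 and 21.1 against 10.1, 30.0 and 44.7 normalized counts in WT. On day 2 the WT groups were wholly apart (0.245% of all genes), at 0, 3.63 and 10.5 against 12.9, 24.0 and 34.1, a log2 fold change of -2.68. On day 5 it was called in Mgmt-/- livers (-0.85, adjusted p = 0.0160, limma) and not in WT (-1.02, adjusted p = 0.218). The Mgmt-/- call was lost without library D389042 or D389048 (adjusted p up to 0.0607), and WT was called by edgeR, by DESeq2 and, in limma, without the libraries of fewer than 300000 reads (adjusted p from 0.00867 to 0.305 over all alternatives). Its adult values lay on the other side of 0: 1.34 at week 10 and 1.30 at month 10 in WT, neither called, and 1.69 ± 0.533 at week 10 in Mgmt-/- livers, called at an adjusted p of 0.0435 (limma). There the levels were 15.8, 33.5 and 73.3 after NDMA and 0, 11.2 and 41.8 after saline; the call was lost in 12 of the 16 fits that left out 1 library (highest adjusted p = 0.0890). Reads of Rhbg are uncertain, since an exon of the gene model Gm38392 overlaps its 3′ end on the same strand.

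**Figure D2:**
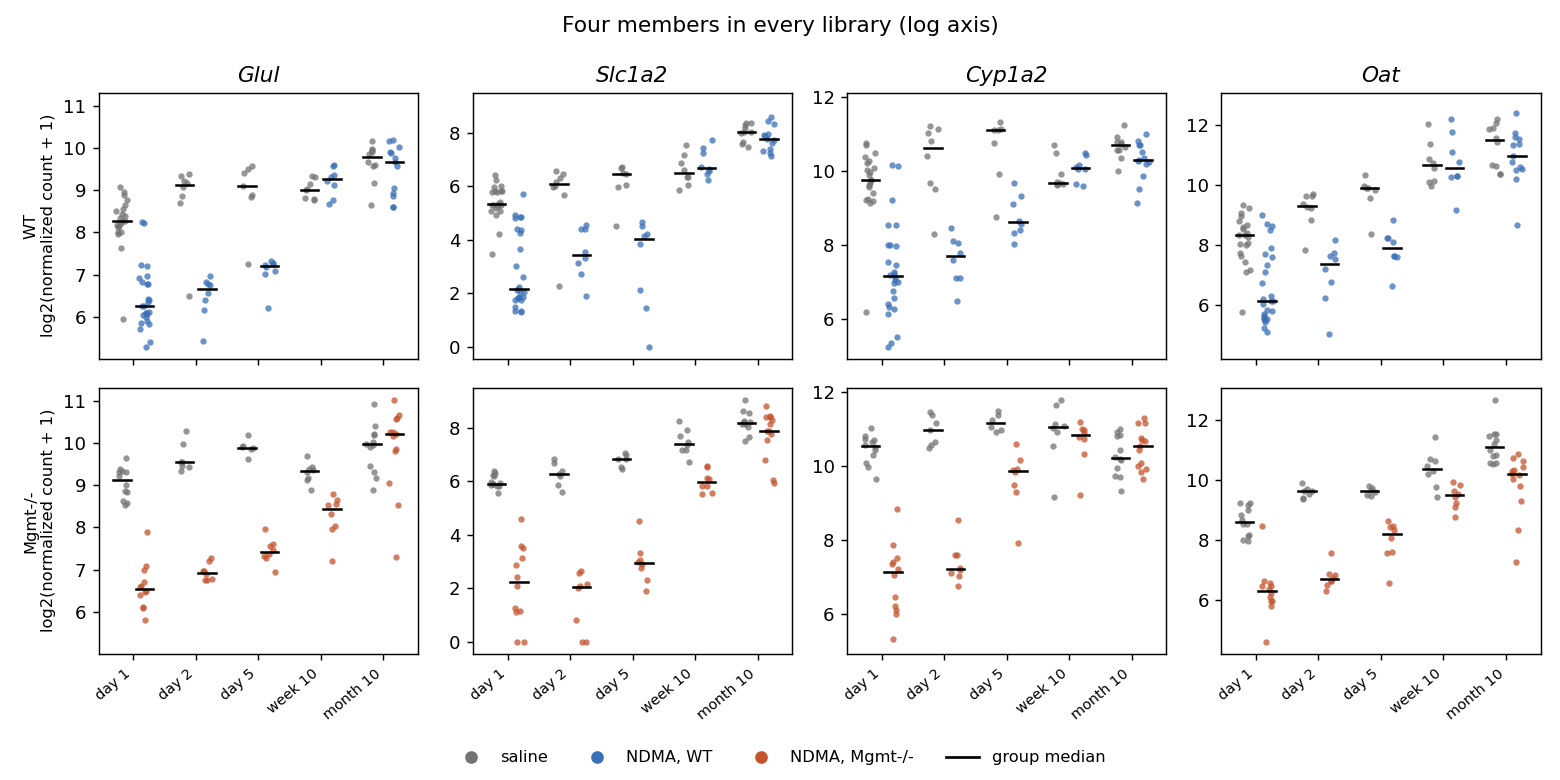
Normalized counts of Glul, Slc1a2, Cyp1a2 and Oat on a log2(value + 1) axis for every library at the 5 collection times (x axis), WT above and Mgmt-/- below, saline in grey, NDMA in color, with black bars for group medians. In Mgmt-/- livers the day 1 groups of Glul, Slc1a2 and Cyp1a2 do not overlap (0.457% of all genes), and at month 10 all groups overlap.

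Cyp1a2 is a cytochrome P450 that oxidises aromatic amines and caffeine and is strongest around the central vein. On day 1 it was at 37.4, 143 and 1145 normalized counts after NDMA and at 72.7, 868 and 1730 after saline in WT, where the highest NDMA values came from the 2 libraries that went against their labelled sex. Mgmt-/- livers held it at 39.5, 141 and 459 against 809, 1479 and 2065, without overlap (0.457% of all genes). The log2 fold changes were -2.42 ± 0.339 in WT and -3.50 ± 0.300 in Mgmt-/- (adjusted p = 6.50e-07 and 8.20e-09, limma). On day 2 they were -2.67 and -3.53, and on day 5 -1.86 and -1.53. No adult comparison called it, with log2 fold changes of 0.14 and -0.44 in WT and of -0.28 and 0.19 in Mgmt-/-.

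Gulo makes the last step of vitamin C synthesis, which mice still perform. It showed smaller falls than Cyp1a2: -1.31, -1.49 and -1.14 on the log2 scale on days 1, 2 and 5 in WT, and -1.99, -1.90 and -1.47 in Mgmt-/-. Levels in Mgmt-/- livers on day 1 were 68.4, 105 and 246 after NDMA and 298, 409 and 995 after saline, again without overlap (0.457% of all genes). In adults it passed no test (0.32 and -0.38 in WT, -0.36 and -0.44 in Mgmt-/-).

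Lgr5, Rnf43 and Axin2, which act on the pathway itself, had low counts. Lgr5 was tested on day 1 in Mgmt-/- livers alone among the early comparisons, where it stood at 0, 0.997 and 7.04 normalized counts after NDMA and 3.29, 7.97 and 16.6 after saline (log2 fold change -1.96 ± 0.331, adjusted p = 1.67e-05, limma). It passed the filter there through its saline level alone. Without the filter the adjusted p was 2.23e-05 (limma). In WT livers on day 2, under the filter, all 8 NDMA libraries (0, 0 and 1.72) lay below all 8 saline libraries (3.02, 4.42 and 10.9). Of the genes that passed the filter there, 0.245% were wholly below in this way. At month 10 Lgr5 was lower in Mgmt-/- livers, at 2.78, 5.79 and 31.9 against 9.36, 14.9 and 27.0, with 10 of 13 NDMA livers below every saline liver and 1 above them all (-0.99 ± 0.266, adjusted p = 0.0144, limma). In WT at month 10 it was at -0.31.

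Rnf43 fell on day 1 in both genotypes, by 1.08 on the log2 scale in WT and by 1.21 in Mgmt-/-. On day 2 in Mgmt-/- livers it fell by 1.25, where 0.603, 5.02 and 9.27 normalized counts stood against 10.2, 12.7 and 14.9 with no overlap (3.02% of all genes). On day 5 in Mgmt-/- livers it was at -0.51 and did not pass the test. Axin2 was too low for the main filter before month 10: on day 1 its median was 0.622 after NDMA and 2.12 after saline in WT, and 1.02 against 4.03 in Mgmt-/-. Without the filter it was called lower on day 1 in WT (-0.77, adjusted p = 0.0115, limma). In Mgmt-/- livers the fall on that day was larger but missed the threshold (-1.05, adjusted p = 0.0756, limma). Whether the genotypes differ there was not tested. At month 10 Axin2 gave -0.70 in WT and -0.01 in Mgmt-/-, neither called.

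Tbx3, a T-box transcription factor, was lower on day 1 by 1.29 on the log2 scale in WT (0, 2.63 and 21.4 against 2.82, 8.27 and 27.5 normalized counts) and by 1.09 in Mgmt-/- (1.43, 6.10 and 16.1 against 5.76, 16.1 and 29.8). On day 2 it was called in Mgmt-/- livers (-1.75 ± 0.353, adjusted p = 0.000451, limma) and not in WT (-1.16 ± 0.414, adjusted p = 0.0957). On day 5 it passed in neither, at -1.13 in WT and -0.37 in Mgmt-/-, and its adult values lay between -0.67 and -0.25. The WT calls hung on shallow libraries: Tbx3 was called without D215006 on day 2 (adjusted p = 0.0175, limma) and without D215014 on day 5 (adjusted p = 0.0293, limma). The effect on day 2 differed between the genotypes by -0.60 and was not called (adjusted p = 0.701, edgeR).

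Day 1 could be read within library batches. In batch 191212Eng alone all 8 members were called lower in WT (5.13% of all genes in that fit) and all 9 in Mgmt-/- (8.03%), and in batch 210901Eng, WT alone, 7 of 7 were (5.36%). In batch 200803Eng, which held 6 NDMA and 4 saline WT libraries and all 3 of the day 1 libraries that stood apart, 0 members and 0 of all genes were called by limma in WT (Glul -0.94, adjusted p = 1.00; Cyp1a2 -1.15), while 5 of 9 were called in Mgmt-/- (2.86%). Without the 2 libraries that went against their labelled sex, without the library labelled D209074, and without all 3, the WT count stayed at 8; without all 3, Glul was at -2.05, Slc1a2 at -2.88 and Cyp1a2 at -2.81. D209074 was picked for its low member values, so a deeper fall without it follows from that choice. For WT on days 2 and 5 and at week 10 each batch held mice of 1 sex, and an effect of sex cannot be told apart from one of batch.

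The members were also counted by library, as those that lay below the lowest saline library of the same genotype and time. In Mgmt-/- livers the median NDMA library had 7.5 of the 10 members below that level on day 1 (range 5 to 9), 9 on day 2 (7 to 9), 6.5 on day 5 (5 to 8), 3 at week 10 (2 to 5) and 2 at month 10 (0 to 8). The month 10 group was the most uneven, since 1 liver had 8 members below every saline liver and another had 0, with 27.5% and 11.7% of all genes below in the same libraries. WT medians were 3.5, 6, 6.5, 1 and 2. Of all genes that passed the filter, the median NDMA library had 11.6%, 16.3%, 18.1%, 8.85% and 10.3% below the lowest saline library at the 5 times in Mgmt-/-, and 5.45%, 15.8%, 13.2%, 10.8% and 6.83% in WT. These counts also depend on how many saline libraries set the lowest value, which was 21 for WT on day 1 and 6 to 12 elsewhere.

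**Figure D3:**
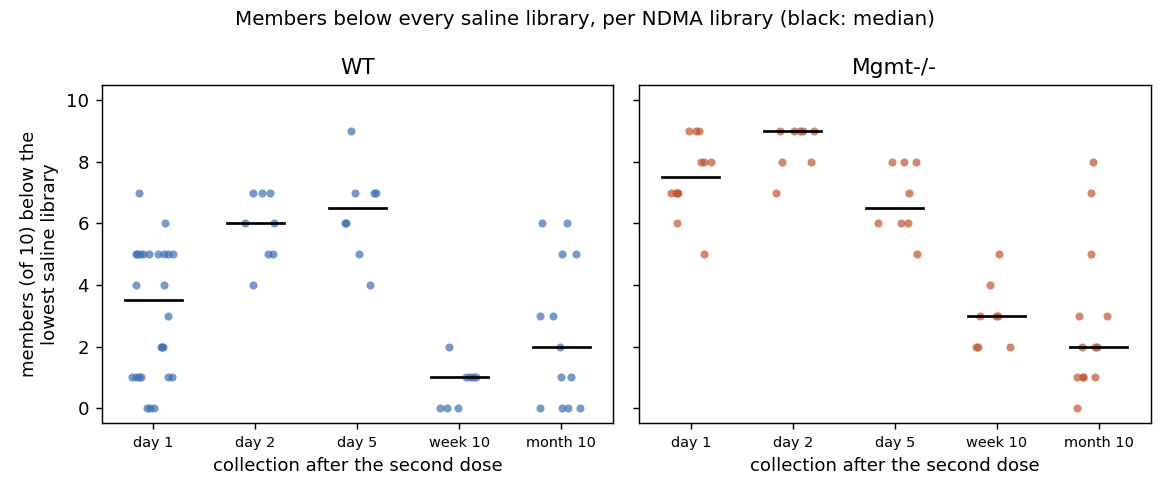
Number of the 10 genes (y axis) that lie below the lowest saline library of the same genotype and time, for each NDMA library at the 5 collection times (x axis), with black bars for medians. The Mgmt-/- median goes from 7.5 on day 1 and 9 on day 2 to 2 at month 10, where single livers range from 0 to 8.

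The next question was whether the effect of NDMA differed between the genotypes. This was tested as a genotype by treatment term with edgeR on recovered reads, adjusted over all genes. On day 1, where 1 of 9444 genes was called in all (0.0106%), 0 of 8 members tested were called, with 4 at an unadjusted p under 0.05, as were 10.1% of all genes (Glul, Slc1a2, Gulo and Cyp1a2, each lower in Mgmt-/-); without the 3 libraries that stood apart the count was again 0. On day 2 Slc1a2 fell further in Mgmt-/- livers, with a difference of -2.21 on the log2 scale (adjusted p = 0.0484, edgeR; 4.12% of all genes called). Without the low saline library D215004, which was left out after its values were seen, this difference was -1.95 (adjusted p = 0.0130, edgeR). At week 10 the difference was -1.15 for Glul (adjusted p = 0.00141, edgeR) and -1.71 for Slc1a2 (4.76e-05), where 5.75% of all genes were called. Oat had a difference of -1.15 at week 10 that missed the threshold (adjusted p = 0.0705). On day 5 and at month 10 no member was called (2.33% and 1.46% of all genes were); at an unadjusted p under 0.05 there was 1 member of 8 on day 5, Slc1a2 (15% of all genes), and 3 of 10 at month 10, Oat, Lgr5 and Cyp1a2 (14%). On day 2, on day 5 and at week 10 the genotypes were sequenced in different batches, and a genotype effect cannot be told apart from a batch effect.

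Whether the early fall had lessened by month 10 was tested within Mgmt-/- livers, as the difference of the 2 NDMA effects in 1 limma fit; this test was added after the data were seen. The effect was higher (less negative or above 0) at month 10 than on day 1 for 6 of 9 members tested, where 5.26% of all genes were called in that direction. The difference was 3.70 ± 0.358 on the log2 scale for Cyp1a2, 3.37 for Slc1a2, 2.45 for Glul, 1.81 for Rhbg, 1.53 for Gulo and 1.04 for Oat. The call for Oat was lost under 6 of 9 alternative settings (adjusted p from 0.0332 to 0.142 over all of them). Lgr5 (0.97), Rnf43 (0.99) and Tbx3 (0.41) were not called by limma; Lgr5 was called by edgeR and by DESeq2, with a difference from 0.29 to 1.73 (adjusted p from 0.0305 to 0.533) over all alternatives.

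Other genes of the pathway were read from lists written out by name. Of 10 Wnt ligands and enhancers, 3 passed the filter in each NDMA comparison. Rspo3, the R-spondin made by central vein endothelium, was lower on days 1 and 2 in both genotypes (-1.32 and -1.78 on the log2 scale in WT, -1.28 and -1.48 in Mgmt-/-). On day 2 its groups were wholly apart: 0, 7.12 and 10.9 normalized counts against 15.4, 19.9 and 33.8 in WT, and 4.45, 5.68 and 9.27 against 11.2, 19.2 and 27.9 in Mgmt-/-. Of all genes, 0.245% in WT and 3.02% in Mgmt-/- were wholly below saline on that day. Wnt2 was lower on day 1 in both genotypes (-0.80 and -0.93) and on day 2 in Mgmt-/- livers (-0.85), and Wnt9b was too low to be tested. Wls, which carries Wnt proteins to the surface, was higher at month 10 in Mgmt-/- livers (0.81).

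Among receptors and transducers, Fzd8 was called lower on day 1 in both genotypes (-0.94 in WT, -1.22 in Mgmt-/-), with Bcl9l and Tcf7 also called lower in WT, so that 3 of 11 tested were lower in WT (4.19% of all genes) and 1 of 13 in Mgmt-/- (8.64%); in the other 8 comparisons 0 were called. Ctnnb1, which encodes β-catenin, Tcf7l2, Lgr4, Lrp6 and Fzd4 were tested in all 10 comparisons and called in none, and the log2 fold change of Ctnnb1 lay between -0.45 and 0.11. Among the brakes of the pathway, Notum, a secreted enzyme that inactivates Wnt proteins and is itself a Wnt target, was lower on days 1 and 2 in WT (-1.52 and -2.13) and on days 1, 2 and 5 and at month 10 in Mgmt-/- livers (-2.82, -2.81, -1.91 and -0.94). Its levels in Mgmt-/- livers on day 1 were 0, 1.42 and 5.52 after NDMA and 8.62, 17.3 and 26.0 after saline, without overlap (0.457% of all genes). Of the Wnt targets better known from proliferating cells, 2 of 7 tested on day 1 in Mgmt-/- livers were higher, Cd44 and Ccnd2, and 0 were lower, where 9.06% of all genes were called higher. Cd44, a cell adhesion receptor, was at 0.70, 1.62, 1.88 and 1.55 on days 1, 2 and 5 and at week 10.

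Pericentral genes outside the 10 were read in the same way. Of 30 other pericentral hepatocyte genes, 16 were lower and 3 higher of 27 tested on day 1 in WT (median -0.68), where 4.19% of all genes were called lower and 5.01% higher. In Mgmt-/- livers 20 were lower and 3 higher of 28 (median -1.20), against 8.64% and 9.06% of all genes. Cyp2e1 was lower at every time in Mgmt-/- livers, by 3.76 on the log2 scale on day 1, 3.13 on day 2, 2.31 on day 5, 1.74 at week 10 and 0.86 at month 10, and on the 3 early days in WT (-2.28, -2.07 and -1.42). In adult Mgmt-/- livers 12 of 28 of these genes were lower at week 10 (3.88% of all genes) and 14 of 29 at month 10 (2.99%). Of the members, 3 of 8 and 2 of 10 were lower at these times, and the difference between list and members was not tested. Of the 3 genes of this list called higher at week 10 (7.27% of all genes), Gstm3, a glutathione transferase, was higher by 3.92 on the log2 scale.

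Periportal genes had medians nearer to 0. On day 1 in WT 9 of 25 were higher and 1 lower (median 0.29), where 5.01% of all genes were called higher and 4.19% lower. In Mgmt-/- livers 6 were higher and 4 lower (median -0.10), against 9.06% and 8.64% of all genes. Cyp2f2 was higher on day 1 in both genotypes (1.31 and 0.88), and Cps1, the first enzyme of the urea cycle, was lower on that day in Mgmt-/- livers (-0.81) and on days 2 and 5 in WT (-0.90 and -1.0). Plasma proteins that all hepatocytes make were lower in 6 of 10 genes on day 1 in Mgmt-/- livers (median -0.75, Alb -0.82), where 8.64% of all genes were called lower. In WT 0 of 10 were lower (median -0.20), against 4.19% of all genes, and the difference between genotypes was not tested for this list. The summed level of the plasma proteins in Mgmt-/- livers was 135951, 284019 and 369239 normalized counts after NDMA and 204978, 453164 and 681841 after saline, with Alb the most abundant.

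**Figure D4:**
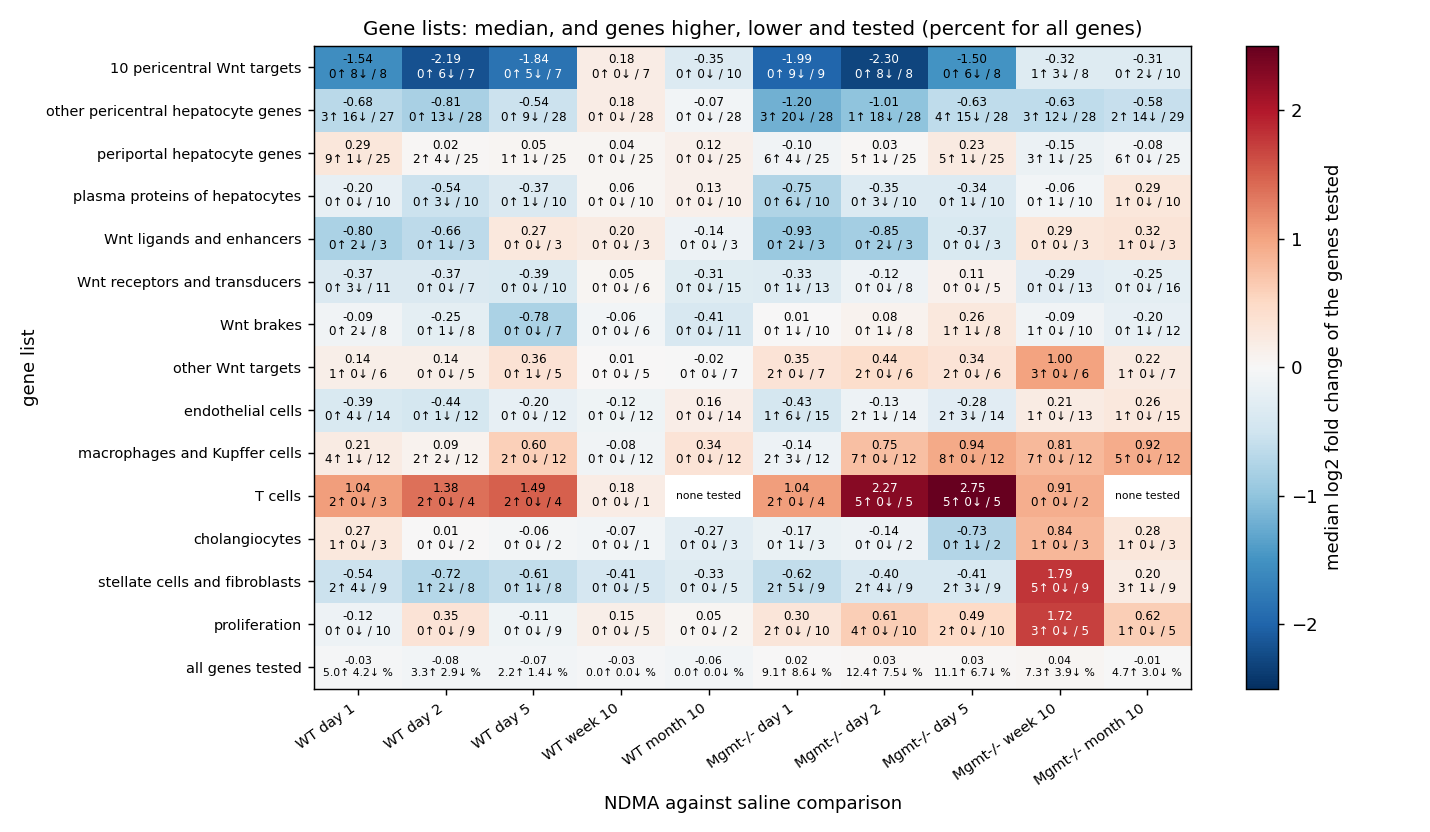
Median log2 fold change (color and first number of a cell) of each gene list (y axis) in the 10 comparisons of NDMA with saline (x axis), with the numbers of genes called higher, called lower and tested below it, and percentages in the row of all genes. The 10 pericentral Wnt targets have the lowest medians on the early days, down to -2.30, and the periportal list stays between -0.15 and 0.29.

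Markers of other cells moved with the same contrasts, and their part in the falls was not tested. Of 16 endothelial genes measured, 6 of 15 tested were lower and 1 higher on day 1 in Mgmt-/- livers (Cdh13 -1.73, Stab2 -1.43, Clec4g -1.0), where 8.64% of all genes were called lower and 9.06% higher. In WT 4 of 14 were lower (4.19% of all genes), and none of the 16 endothelial genes was at 0 throughout a group. Their summed level on day 1 in Mgmt-/- livers was 350, 540 and 692 normalized counts after NDMA and 541, 690 and 983 after saline, and in WT 373, 455 and 814 against 357, 599 and 849, with Clec4g the most abundant. On day 5 in Mgmt-/- livers 8 of 12 macrophage genes were higher (11.1% of all genes were called higher), with a summed level of 2444, 3014 and 3511 against 1264, 1455 and 2036 and Lyz2 the most abundant. T-cell genes were higher in 5 of 5 tested on that day, with sums of 125, 186 and 231 against 23.0, 28.6 and 33.6.

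Profiles over the 10 comparisons were also compared with that of the members themselves, as a description. Of 7294 genes tested in all 10, which include 7 members, the nearest to the median profile of those 7 by the root mean square difference of log2 fold changes were Oat (0.33) and Glul (0.40), which are part of that median. The nearest genes outside the 10 were Reln (0.42), a secreted protein of hepatic stellate cells, Lhpp (0.43), a phosphatase, Avpr1a (0.50), the vasopressin receptor of hepatocytes, Cib2 (0.54) and Ecm1 (0.54). Slc1a2 ranked 480 (1.23) and Rhbg 201 (1.08); the falls of Slc1a2 were deeper and the adult values of Rhbg were positive.

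The last question was how the 10 genes stood in saline livers of different ages. Glul in WT was at a median of 310, 559, 551, 516 and 875 normalized counts from day 1 to month 10, and Oat at 325, 638, 952, 1631 and 2927. Slc1a2 medians were 39.7, 66.6, 85.9, 88.2 and 260. Mgmt-/- medians were 557, 744, 943, 645 and 997 for Glul, 392, 792, 799, 1339 and 2210 for Oat and 59.0, 76.9, 112, 169 and 291 for Slc1a2. The medians of all 3 genes were higher at week 10 and month 10 than on day 1 in both genotypes. Gulo was lowest at week 10 in both genotypes (median 125 in WT and 179 in Mgmt-/-) and stood at 409 and 527 at month 10.

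Tests of age used 1 limma fit over saline livers per genotype with batch as a term. From day 1 to week 10, Oat was higher by 2.67 ± 0.569 in WT (adjusted p = 0.00100) and by 2.21 in Mgmt-/-, with all 8 week 10 livers above every day 1 liver in each (2.38% of all genes in WT and 2.04% in Mgmt-/-). Glul was called higher as well, by 1.71 in WT (adjusted p = 0.0376, limma; 0.77 without covariates, the lowest of its alternatives) and by 0.65 in Mgmt-/- (adjusted p = 0.0343), but with equal library totals neither call held (0.0573 and 0.160), and the Mgmt-/- call was also lost without covariates (0.326) and within the batches that hold both ages (0.0746). Slc1a2 was called in Mgmt-/- (1.44) and not in WT (1.75, adjusted p = 0.124, limma), where it was called without covariates, by edgeR and by DESeq2 (adjusted p from 0.00167 to 0.154 over all alternatives). Over that span 2 of 9 members were called in WT, both higher (9.48% of all genes called in either direction). In Mgmt-/- 5 of 9 were called (16.8%), 3 higher and 2 lower (Rnf43 and Gulo). Between day 5 and day 1, 0 of 9 were called by limma in WT (0.431%), with 3 at an unadjusted p under 0.05, as were 11.2% of all genes, and 1 called by DESeq2. In Mgmt-/- 3 of 9 were called between these days, all higher (5.23%). Between week 10 and day 5, 4 of 9 were called in WT (11.8%), with Oat higher and Lgr5, Rhbg and Gulo lower. In Mgmt-/- 2 of 9 were called over these ages (4.98%), with Oat higher and Gulo lower. No batch held both day 1 and day 5 or both day 1 and week 10 in WT, or both day 5 and week 10 in Mgmt-/-, so these differences lean on the batch term; without covariates the WT count from day 1 to week 10 was 7.

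From week 10 to month 10 most members were higher, as were many other genes. In WT 6 of 9 were called higher (39.8% of all genes called higher) and in Mgmt-/- 8 of 9 higher and Cyp1a2 lower (31% and 20% of all genes). In Mgmt-/- the call for Cyp1a2 was lost with equal library totals (-0.23, adjusted p = 0.358), that for Glul without covariates, by edgeR and by DESeq2, and that for Rhbg by edgeR. The median of all genes was itself shifted by 0.36 in WT and 0.18 in Mgmt-/- on the log2 scale, and by 0.75 and 0.56 with equal library totals, and the members are read against that shift. The 6 members called higher in both genotypes all stood above it: Lgr5 (2.66 in WT and 2.04 in Mgmt-/-), Tbx3 (2.33 and 1.37), Rnf43 (1.95 and 1.38), Gulo (1.79 and 1.39), Slc1a2 (1.36 and 0.74) and Oat (0.81 and 0.79). The WT call for Oat was lost without covariates, by edgeR and by DESeq2 (adjusted p up to 0.260). Lgr5 in WT rose from 0, 1.04 and 1.91 normalized counts at week 10 to 3.61, 11.2 and 15.8 at month 10, without overlap (12.5% of all genes). Glul, at 0.55 in WT, did not pass the test. Sex made no called difference to the members in adult Mgmt-/- saline livers (0 of 9 by limma; 4.2% of all genes were called). At an unadjusted p under 0.05 there was 1 of 9 (Tbx3), where 15.3% of all genes were.

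**Figure D5:**
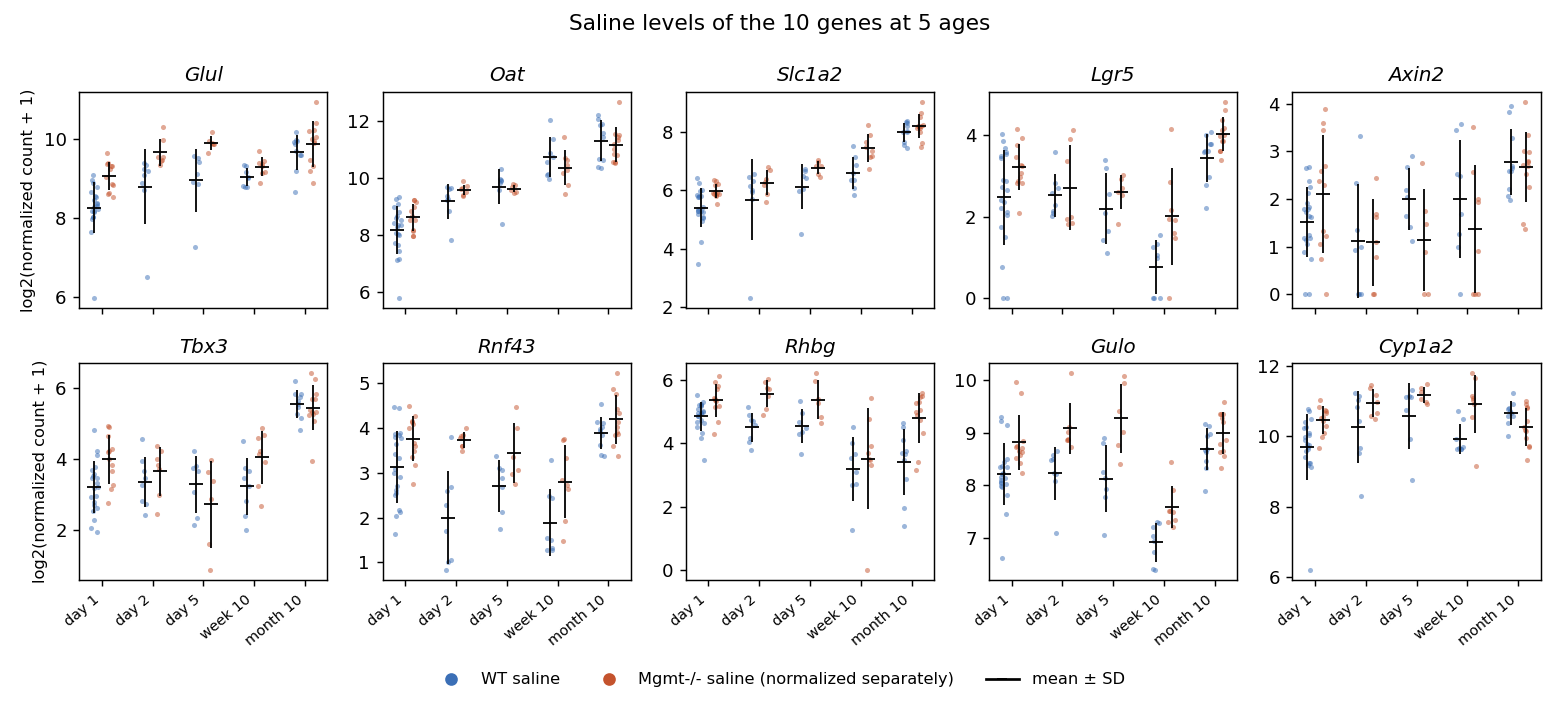
Saline levels of the 10 genes on a log2(normalized count + 1) axis at the 5 collection times (x axis), points for libraries and bars for mean ± SD, WT in blue and Mgmt-/- in orange, each genotype normalized separately. Oat rises from a WT median of 325 normalized counts on day 1 to 2927 at month 10, and Gulo is lowest at week 10.

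All 10 genes are annotated on GRCm38 (GENCODE vM21): Glul at chr1:153899944-153909723, Oat at chr7:132557478-132576398, Slc1a2 at chr2:102658659-102790784, Rhbg at chr3:88242874-88254709, Cyp1a2 at chr9:57676937-57683703, Gulo at chr14:65986786-66009207, Lgr5 at chr10:115450311-115587780, Axin2 at chr11:108920349-108950783, Rnf43 at chr11:87662722-87735539 and Tbx3 at chr5:119670669-119684724. Axin2 and Rnf43 share chromosome 11, and the others lie on separate chromosomes.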

How the data were processed

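Livers were profiled by 3′ digital gene expression sequencing. The authors aligned reads with STAR to GRCm38 (mm10), made gene counts with ESAT and scaled these by DESeq2 size factors, separately for each genotype; the deposited values are therefore a signal (gene counts over size factors), and versions, annotation and strand setting are not given in the sources used here. The labels name 214 samples and 213 had values; the other was not analysed here. Whole reads were recovered in 209 libraries (tolerance 0.01). The 2 Mgmt-/- saline libraries of day 5 with Kap over 1000 were left out.

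NDMA was compared with saline within each genotype and time with limma 3.58.1 (R 4.3.3; trend and robust settings) on log2(value + 1), with terms for sex and library batch, keeping genes whose mean was 5 or more; ages were compared in 1 fit over saline libraries per genotype. For genotype by treatment, the recovered reads were fitted by edgeR 4.0.16 with TMM scaling and its quasi-likelihood test. A call needed a Benjamini-Hochberg adjusted p under 0.05 over all genes and, in limma, an absolute log2 fold change over 0.58. The labels do not say which mice shared a litter, so p-values measure the spread between mice of these litters. Alternatives were pseudocounts of 0.5 and 5, no filter, a mean of at least 20, no covariates, equal totals, edgeR, DESeq2 1.42.0, no fold change threshold, single batches and left-out libraries. The procedures were tested on simulated data.

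The members and gene lists were chosen with earlier results of these data known. Named genes were the 10 members, a fixed set from the lists and, in each list, up to 3 called genes with the largest absolute log2 fold change in a comparison; the 5 genes nearest in profile were also named. Single libraries named for low or mismatched values were picked after their values were seen. Counting depth limits genes of a few reads.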

Additional observations from a re-analysis of the deposited data

Results flagged for a closer look

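Of 130 sets of values, 1 per member and group of 4 to 10 mice, 20 had a highest or lowest library that lay far from the others for the range of its group. The limit used gives about 1 in 20 for independent sets of normal spread. The sets here share libraries and some hold counts of 0, so the 20 cannot be weighed against that rate. The low saline libraries of WT account for 7 of the 20: D215004 of day 2 with Glul at 88.9, Oat at 228, Slc1a2 at 3.86 and Gulo at 135 normalized counts, and D215012 of day 5 with Glul at 151, Oat at 334 and Slc1a2 at 21.8. Among NDMA libraries of WT, D215014 of day 5 held Glul at 73.8 and D215022 of week 10 held Rhbg at 68.4.

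In Mgmt-/- livers the NDMA library D389095 of day 2 was the highest in Oat (191) and Cyp1a2 (371) and the lowest in Rnf43 (0.603). The NDMA library D209005 of week 10 held Axin2 and Tbx3 at 0 and Cyp1a2 at 591, and the saline library D209028 of week 10 held Rhbg at 0 and Cyp1a2 at 571. Axin2 was high in D389089 of day 2 (6.13) and D389072 of day 5 (3.24), both given NDMA, and Gulo was high in the saline library D389023 of day 2 (1121).

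The effect of NDMA differed between genotypes by edgeR for Slc1a2 on day 2 (-2.21) and for Glul (-1.15) and Slc1a2 (-1.71) at week 10, each lower in Mgmt-/- livers. It differed between month 10 and day 1 in Mgmt-/- livers by limma for Glul (2.45), Oat (1.04), Slc1a2 (3.37), Rhbg (1.81), Gulo (1.53) and Cyp1a2 (3.70). Each was less negative or above 0 at month 10. The left-out saline libraries of day 5, D389011 and D389017, held the kidney transcript Kap at 6147 and 7562 normalized counts.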

How the results depend on the processing

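Of 1854 member values under alternative settings, 1734 kept their direction and their side of the threshold, 47 fell back over it, 35 passed it and 38 changed sign, 4 of these for a called value; except where the setting itself shows it (fewer genes or libraries), the cause was not tested. No paired analysis was possible because the groups compared share no replicate numbers in the labels.

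The number of members called changed by over 1.5 times as follows. For NDMA it was 5 of 5 tested on day 1 in WT and 1 of 7 at month 10 in Mgmt-/- with a mean of at least 20, 0 (WT) and 5 (Mgmt-/-) on day 1 in batch 200803Eng alone, and 3 on day 5 in Mgmt-/- with all saline libraries kept. For saline ages in WT it was 1 without covariates and 1 by DESeq2 (day 5 against day 1), 7 without covariates and 1 with equal totals (week 10 against day 1), and 3 of 6 tested with a mean of at least 20 (month 10 against week 10). In Mgmt-/- it was 1 without a filter, with equal totals or with all saline libraries kept and 5 without covariates (day 5 against day 1), 3 in batches that hold both ages (week 10 against day 1), and 1 with a pseudocount of 0.5, no filter, equal totals, DESeq2 or all saline libraries kept and 6 without covariates (week 10 against day 5). Without a filter the genotype test called 2 on day 2 and 1 on day 5. With 1 library left out, the count ranged from 5 to 7 on day 2 and from 4 to 7 on day 5 in WT, and in Mgmt-/- from 5 to 6 on day 5 and from 3 to 4 at week 10; it stayed at 0 at week 10 in WT and at 8 on day 2 in Mgmt-/-.

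Signs changed for NDMA with equal totals (Oat -0.0034 at week 10 in WT, Rnf43 0.0021 at week 10 and Axin2 0.020 at month 10 in Mgmt-/-), for Oat without shallow libraries (0.014) and Glul in batches 200710Eng and 200724Eng (0.013) at month 10 in WT, for Gulo (0.46) and Cyp1a2 (0.74) on day 5 in Mgmt-/- with all saline libraries kept, for Tbx3 at week 10 by DESeq2 (0.0049), and for Axin2 at month 10 in Mgmt-/- with a pseudocount of 5 (0.061), by edgeR (0.10) and by DESeq2 (0.14). For saline ages without covariates they changed for Lgr5 (-0.27), Tbx3 (0.087), Rnf43 (-0.43), Rhbg (-0.31) and Gulo (-0.090) on day 5 and Tbx3 (0.029) at week 10 against day 1 in WT, and for Rhbg (0.018) on day 5 and Tbx3 (0.055) at week 10 against day 1, and Glul (-0.60) and Lgr5 (-0.59) at week 10 against day 5, in Mgmt-/-. By edgeR they changed for Tbx3 (0.0061, week 10 against day 5) and Rhbg (-0.12, month 10 against week 10; -0.025 by DESeq2) in WT, and for Rnf43 (0.026, day 5 against day 1) and Glul (-0.016, week 10 against day 5) in Mgmt-/-, and with equal totals for Glul (-0.17, week 10 against day 5) in WT. With all saline libraries kept they changed against day 1 for Slc1a2 (-0.57), Rhbg (0.038), Gulo (-1.66) and Cyp1a2 (-1.54) and at week 10 against day 5 for Gulo (0.81) and Cyp1a2 (1.97). Rhbg in females against males was 0.022 with a pseudocount of 5 and 0.055 by edgeR. In the genotype test they changed for Rnf43 on day 1 by limma (-0.10), Rhbg on day 1 without the 3 libraries that stood apart (0.053) and Tbx3 at month 10 without covariates (0.037).

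Equal totals raised the share of calls that were higher from 54.46% to 65.34% on day 1 and from 53.37% to 67.96% on day 2 in WT, and in Mgmt-/- from 51.18% to 76.15%, 62.23% to 80.28%, 62.43% to 77.89% and 65.19% to 86.78% on days 1, 2 and 5 and at week 10. For saline ages the share moved, in WT, from 56.41% to 78.72% (day 5 against day 1), 42.31% to 30.46% (week 10 against day 1), 33.12% to 14.85% (week 10 against day 5) and 65.19% to 80.97% (month 10 against week 10), and in Mgmt-/- from 42.17% to 11.94%, 43.8% to 27.55% and 60.75% to 82.72% for the first, second and last of these; for month 10 against day 1 of the NDMA effect it moved from 57.84% to 28.78%. The comparisons of ages within batches that hold both could not be run for day 5 or week 10 against day 1 in WT and week 10 against day 5 in Mgmt-/-.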

Other observations

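Genes of scar-forming and dividing cells were also read in Mgmt-/- livers. At week 10, when Glul, Oat and Slc1a2 were lower, 5 of 9 stellate cell and fibroblast genes were higher after NDMA (median 1.79 on the log2 scale; 7.27% of all genes were called higher), among them Timp1, an inhibitor of matrix proteases, at 4.22 by limma, and 3 of 5 proliferation genes tested were higher (median 1.72). At month 10, when Oat alone of these 3 was lower, the counts were 3 higher and 1 lower of 9 for stellate cell genes and 1 higher of 5 for proliferation, where 4.75% of all genes were called higher and 2.99% lower. On day 1 in the same genotype 5 of 9 stellate cell genes were lower and 2 higher (8.64% and 9.06% of all genes), with Reln at -2.01. The osteopontin gene Spp1, listed with cholangiocyte genes, was at -0.79 on day 1, 3.13 at week 10 and 2.48 at month 10. The part of these cells in the members' values was not tested.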
